A study of Mus musculus with 22 samples.

Results

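The potassium channel genes of the mouse were followed in the retina and choroid after laser injury. They were taken as every protein-coding gene of the deposited count tables whose symbol is Kcn, then letters, then a number. The rule found 93 genes among 54532, and sorted them into 18 classes by the letter after Kcn. It takes in the pore-forming subunits and also the auxiliary ones, which share the letter of a neighbouring class: Kcnab with Kcna, Kcnmb with Kcnma. The classes were Kcna (11 genes), Kcnb (2), Kcnc (4), Kcnd (3), Kcne (5), Kcnf (1), Kcng (4), Kcnh (8), Kcni (4, all Kcnip), Kcnj (15), Kcnk (14), Kcnm (5), Kcnn (4), Kcnq (5), Kcns (3), Kcnt (2), Kcnu (1) and Kcnv (2).

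Potassium channels let potassium leave or enter a cell and so set its resting voltage, the length of its action potentials and how often it fires. In the retina, voltage-gated channels in the inner segments of photoreceptors carry the outward side of the dark current, other voltage-gated and calcium-activated channels shape firing in ganglion and amacrine cells, and inward rectifiers in Müller glia clear the potassium that active neurons release. Inward rectifiers of the pigment epithelium take part in the potassium balance of the space around the photoreceptors. Because each of these cell types uses its own set of channels, the level of a channel gene in whole tissue follows both how many such cells were sampled and how much of the gene each one makes. In these bulk libraries fewer cells of a type and less RNA per cell cannot be told apart.

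Choroidal neovascularisation (CNV) is the growth of choroidal vessels toward the retina, and laser burns start it in mice. Wild-type adult C57BL/6J mice gave 16 libraries: 4 without CNV, called control here, and 4 for each of 3 times after the burn (day 3, day 7, day 14). A second table held 6 libraries at day 3 after the laser. Of these, 3 came from mice labelled Rag2-/-γc-/- (Rag2 gc KO here), which lack Rag2 and the common gamma chain, and 3 from mice labelled Rag2-/- (Rag2 KO here). Rag2 is needed to make T and B cells and the gamma chain is needed by NK cells, so all 6 libraries lack T and B cells by genotype, and no unlasered Rag2 library was analysed here. Sex and exact age are not in the labels, nor is whether each library was a separate animal, so p-values measure the spread between libraries. Control replicate 4 is titled as a library without CNV while its treatment label says laser. It was kept as a control, and counts of calls without it are given below.

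The total count was 15033983 to 16848254 in the wild-type libraries and 27227847 to 30315086 in the Rag2 libraries. Tissue from outside the retina was present in unequal amounts. The summed level of 15 lens markers was 22805 to 43318 CPM (read counts scaled to the library's total) at day 3 and 143 to 10613 CPM in control, and that of 13 cornea and conjunctiva markers was 4830 to 34352 CPM at day 3 and 2533 to 7678 CPM in control. Some retinal markers ran the other way. The 16 rod markers summed to 31885 to 50159 CPM at day 3 and 64713 to 73430 CPM in control. Ganglion cell markers, 12 in all, summed to 342 to 553 CPM at day 3 and 679 to 965 CPM in control. The 14 amacrine and horizontal cell markers summed to 757 to 919 CPM at day 3 and 1032 to 1094 CPM in control. Bipolar cell markers, 12 in all, summed to 1029 to 1390 CPM at day 3 and 1636 to 1834 CPM in control. The 12 pigment epithelium markers summed to 1674 to 2545 CPM at day 3 and 2780 to 3877 CPM in control. Sums of the Müller glia, cone and microglia lists did not lie wholly below control. The 12 Müller glia markers summed to 8262 to 10370 CPM at day 3 and 7233 to 7825 CPM in control. The 12 cone markers overlapped, at 1309 to 2096 CPM at day 3 and 1807 to 1971 CPM in control. Microglia and macrophage markers, 13 in all, summed to 136 to 260 CPM at day 3 and 65.5 to 86.3 CPM in control. None of these markers was at 0 across day 3 or control, apart from 1 lens marker, Cryga, in control. Markers of the labelled tissue were detected throughout: no rod, Müller glia or pigment epithelium marker was at 0 across any group. Day 14 replicate 1 stood farthest apart, with 113718 CPM of lens markers and 17254 CPM of rod markers.

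The channel genes differed widely in their control levels. Per length of transcript, as deposited FPKM (fragments scaled by transcript length and library total), 2 genes were above 100, 12 lay between 10 and 100, 40 between 1 and 10, and 39 below 1. Kcnj14, an inward rectifier, led with 237 ± 14.0 FPKM. Kcnv2, a silent subunit of photoreceptors, had 94.6 ± 10.9 FPKM, and Kcnab2, a cytoplasmic beta subunit of Kcna channels, had 54.5 ± 2.74 FPKM (all SD, n = 4). The ranges of these 3 genes did not overlap: Kcnj14 lay at 224 FPKM and above, Kcnv2 between 83.5 and 109.6 FPKM, and Kcnab2 between 52.1 and 58.2 FPKM. Further down, neighbours lay within their spread, as with Kcna5 at 26.3 ± 1.33 FPKM and Kcnj9 at 24.5 ± 2.42 FPKM. Kcnj10, the main inward rectifier of Müller glia, stood 16th in the order at 9.26 ± 1.24 FPKM. Kcnh5, a voltage-gated channel of the ether-a-go-go family, stood 34th at 2.78 ± 0.238 FPKM.

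**Figure D1:**
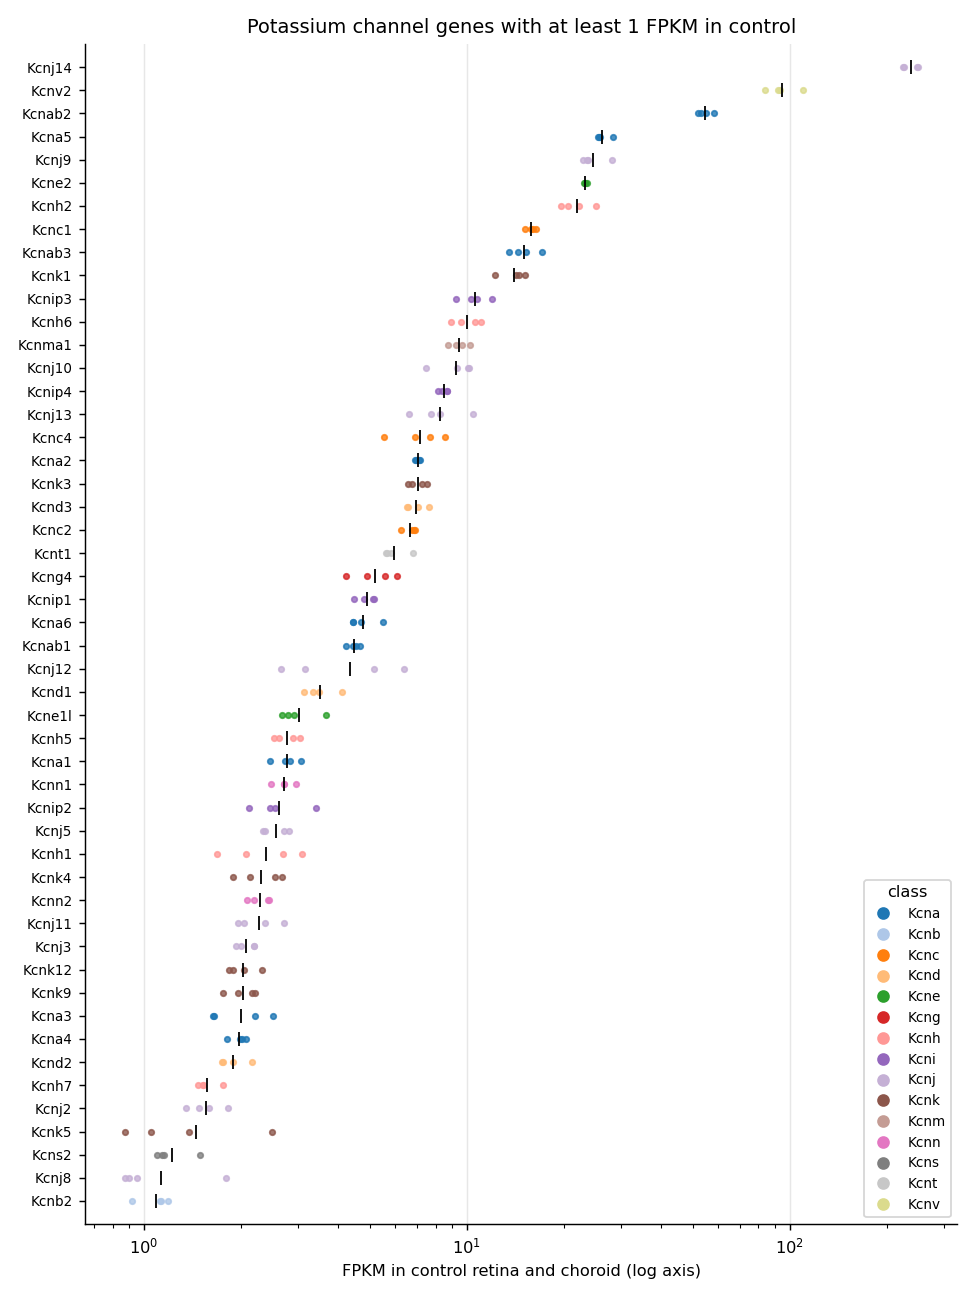
Level of the potassium channel genes reported here with at least 1 FPKM in control retina and choroid, on a log axis. Each point is 1 of the 4 control libraries, the black tick is their mean and colours mark the class; Kcnj14, Kcnv2 and Kcnab2 stand clear of the rest.

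Kcnj14, Kcnv2 and Kcnab2 together held 29.4% ± 1.03 of the counts of all 93 genes in control (SD, n = 4). All 93 genes together took 0.280% ± 0.0553 of all counts at day 3, 0.327% ± 0.0461 at day 7 and 0.342% ± 0.132 at day 14, against 0.494% ± 0.0177 in control (SD, n = 4 each). The highest day 3 and day 7 libraries, at 0.320% and 0.376%, lay below the lowest control at 0.469%, and so did the highest day 14 library at 0.435%. In the Rag2 table the share was 0.450% ± 0.0303 in Rag2 gc KO and 0.510% ± 0.0133 in Rag2 KO (SD, n = 3 each), without overlap. Rod marker sums were also lower in the wild-type laser libraries at day 3, and in the Rag2 table they overlapped, at 46586 to 62979 CPM in Rag2 gc KO and 59044 to 68943 CPM in Rag2 KO, and their part in the result was not tested.

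The start regions of 4 genes that come up repeatedly below are shown here as they stand in the RefSeq promoter table (build GRCm38.p6, the same build as mm10), which gives 250 bases before and 50 after each start. Kcnh5, Kcna2 and Kcnc1 were lower at day 3, and Kcnj10 was not called in any comparison by edgeR. The motif GGGCGG, the core of the GC box bound by Sp factors, is in capitals, on either strand (read on the other strand as CCGCCC). The windows are chr12:75177283-75177582 on the minus strand for Kcnh5, chr3:107101317-107101616 on the plus strand for Kcna2, chr7:46396218-46396517 on the plus strand for Kcnc1 and chr1:172340960-172341259 on the plus strand for Kcnj10.
Kcnh5: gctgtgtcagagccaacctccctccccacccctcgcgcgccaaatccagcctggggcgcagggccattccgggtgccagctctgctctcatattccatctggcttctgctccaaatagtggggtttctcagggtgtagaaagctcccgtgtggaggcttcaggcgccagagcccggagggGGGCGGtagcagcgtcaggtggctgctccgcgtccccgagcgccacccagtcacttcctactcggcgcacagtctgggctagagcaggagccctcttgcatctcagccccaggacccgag
Kcna2: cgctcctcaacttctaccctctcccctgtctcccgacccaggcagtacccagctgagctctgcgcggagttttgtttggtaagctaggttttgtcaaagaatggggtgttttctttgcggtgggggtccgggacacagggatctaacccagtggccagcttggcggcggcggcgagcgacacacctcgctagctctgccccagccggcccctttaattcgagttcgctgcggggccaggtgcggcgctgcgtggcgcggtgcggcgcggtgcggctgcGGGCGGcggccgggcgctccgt
Kcnc1: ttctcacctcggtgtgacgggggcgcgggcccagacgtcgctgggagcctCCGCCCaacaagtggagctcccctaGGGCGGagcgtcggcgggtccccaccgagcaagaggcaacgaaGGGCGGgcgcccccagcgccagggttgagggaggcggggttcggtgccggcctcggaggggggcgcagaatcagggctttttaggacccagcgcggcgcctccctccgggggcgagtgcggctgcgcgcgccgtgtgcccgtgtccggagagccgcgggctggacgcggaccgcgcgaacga
Kcnj10: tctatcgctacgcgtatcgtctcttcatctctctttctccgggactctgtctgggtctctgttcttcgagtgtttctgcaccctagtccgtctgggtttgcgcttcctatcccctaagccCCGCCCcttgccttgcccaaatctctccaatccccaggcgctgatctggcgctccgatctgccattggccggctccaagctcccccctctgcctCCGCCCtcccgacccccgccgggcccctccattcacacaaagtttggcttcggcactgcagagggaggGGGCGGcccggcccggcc

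These windows are GC-rich, with 65.3% G and C for Kcnh5, 66.7% for Kcna2, 74.7% for Kcnc1 and 63.7% for Kcnj10. Of the 93 channel genes, 68 had a window, and 43 of the 68 held GGGCGG in at least 1 of their windows. Of the 20 genes lower at day 3, 12 had a window and all 12 held it, in 12 of their 14 windows (85.7%). Of all 27025 genes with a window, 10324 held it (38.2%), or 35.7% of all 32851 windows, beside 48.4% of the 93 windows of channel genes. The 27025 genes were not limited to those expressed in this tissue. Whether the motif goes with lower levels was not tested. Kcnc1 and Kcnj10 held 3 copies each, and Kcnh5 and Kcna2 held 1 each.

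At day 3 after the laser 20 channel genes were lower than in control and 1, the leak channel Kcnk6, was higher. The steepest falls were in Kcnj6, Kcna3, Kcna1, Kcnh8 and Kcnh5, at log2 fold changes of -2.39, -2.37, -2.19, -2.13 and -2.09. The first is an inward rectifier and the other 4 are voltage-gated. A filter on low counts left 80 of the 93 genes. The calls were made by the quasi-likelihood test of edgeR at an adjusted p under 0.05, with adjustment over all genes. They make up 26.25% of the 80, where 14.7% of all 18657 genes tested were called; in the lower direction they make up 25% of the channel genes, beside 7.77% of all genes, and 1 in the higher direction, beside 6.97%. The log2 fold changes of the 20 lower genes ran from -2.39 to -0.53, with a median of -1.32. Over all 80 genes the median was -0.54 and 62 had a negative sign, while the median over all genes tested was 0.01; with lens and cornea list scores in the fit the channel median was -0.22. All 4 day 3 libraries lay below all 4 controls for 42 of the 80 (52.5%), which held for 22.8% of all genes, and above them for 4 (5%), which held for 17.4%. Fitted with scores of the lens and cornea lists as covariates, none of the 20 stayed called, though all kept their sign. Without control replicate 1, 2, 3 or 4 the calls numbered 6, 3, 1 and 5, beside 4.55%, 2.59%, 1.54% and 3.37% of all genes. Without day 3 replicate 1, 2, 3 or 4 they numbered 12, 19, 3 and 8, beside 6.46%, 12.7%, 2.45% and 5.35%. Among the called genes, Kcnh7 overlaps the protein-coding Gca on the other strand, which had a mean of 289.5 counts in control beside 376 for Kcnh7.

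**Figure D2:**
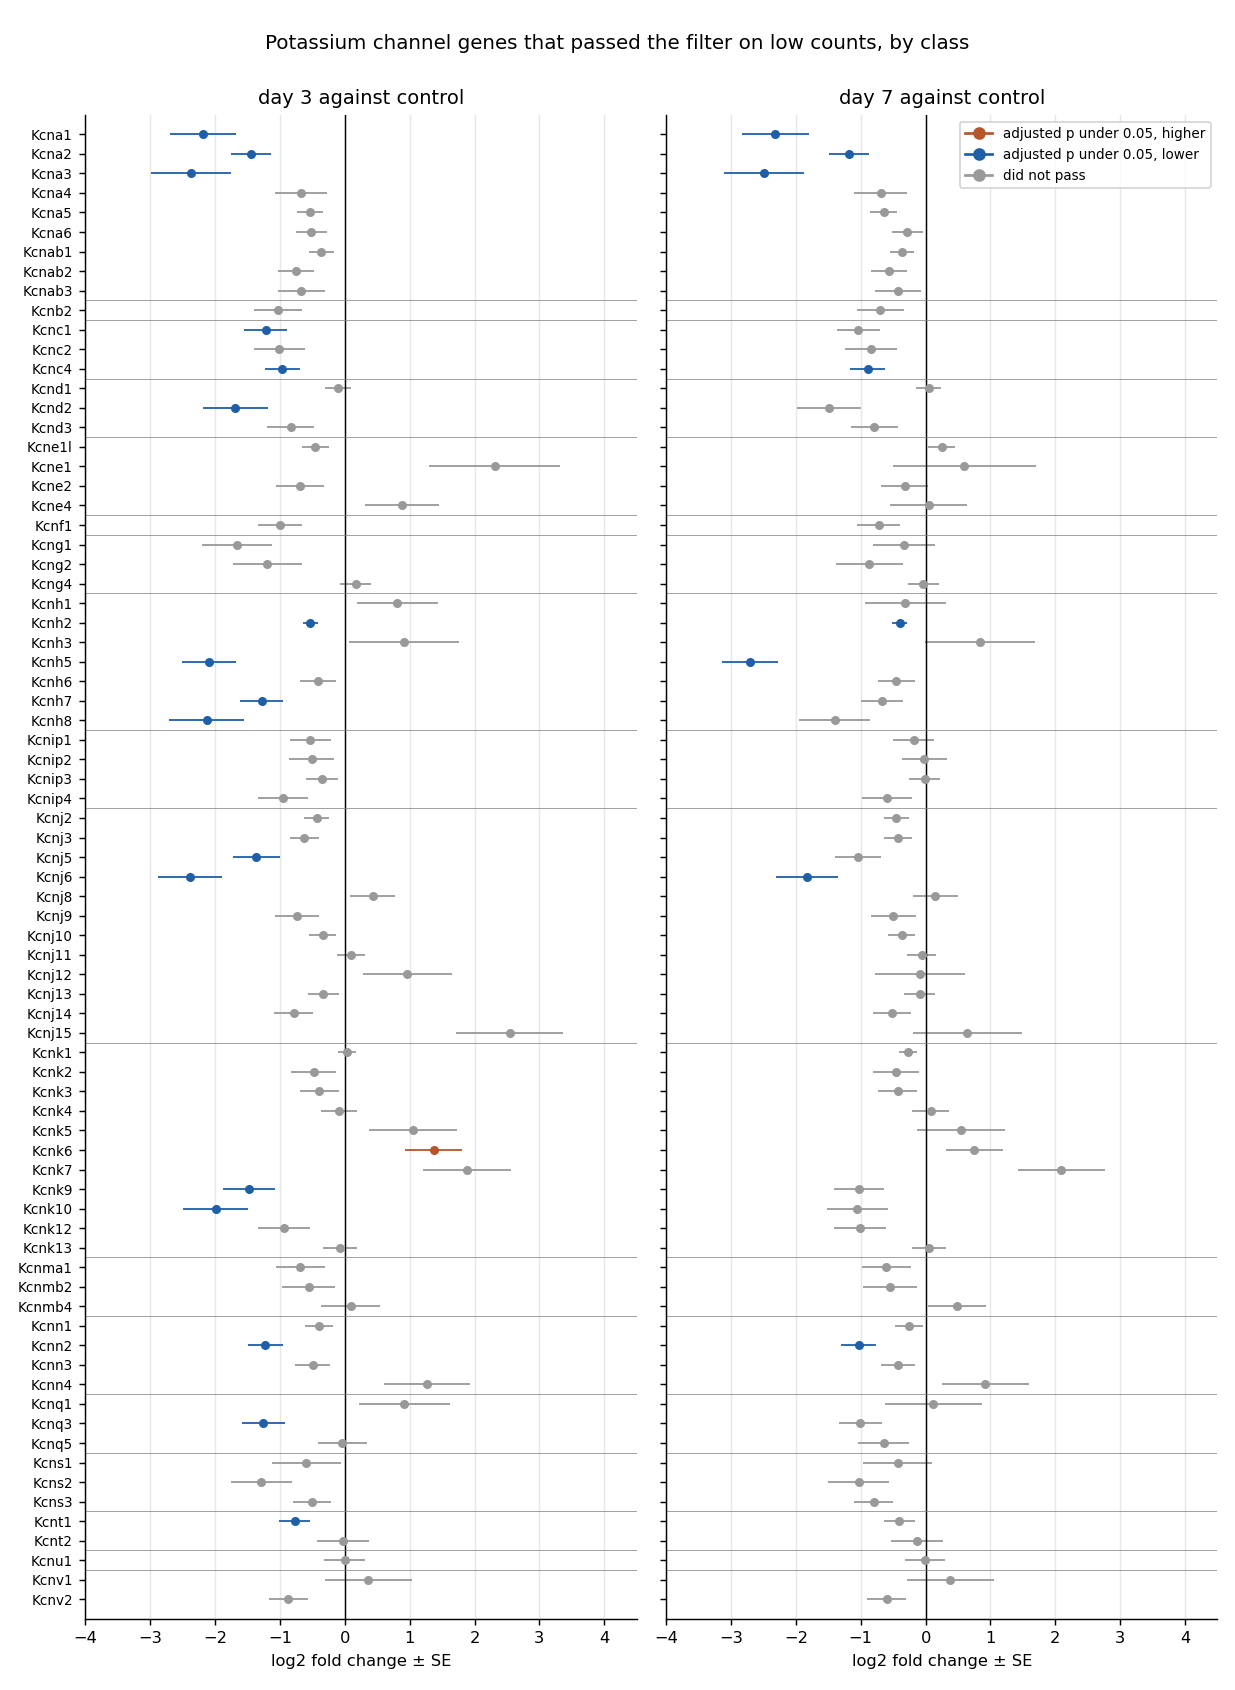
Log2 fold change with its SE for the channel genes reported here that passed the filter, day 3 against control on the left and day 7 against control on the right, with lines between classes. Blue points passed as lower, the orange point (Kcnk6, day 3) passed as higher and grey points did not pass; most points lie left of 0 in both panels.

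The Kcna class holds the low-threshold delayed rectifiers of axons and nerve terminals. Of its 9 tested genes 3 were lower at day 3, and all 9 had every day 3 library below every control. Among all genes at day 3, 7.77% were called lower and 6.97% higher, and 22.8% had every day 3 library below every control. The day 3 counts of classes and marker lists here and below stand beside those shares, and small classes give coarse shares. Kcna2 had 36.7, 31.7, 27.2 and 28.6 CPM at day 3, against 83.6, 85.0, 82.7 and 87.2 CPM in control. The groups did not overlap, with day 3 averaging 31.0 ± 4.24 CPM and control 84.6 ± 1.93 CPM (SD, n = 4 each), and the log2 fold change was -1.45 ± 0.31 (SE, edgeR adjusted p = 0.0157). Kcna1, which opens at voltages close to rest, had 3.12, 3.98, 1.46 and 3.15 CPM at day 3, against 13.8, 14.7, 13.02 and 12.02 CPM in control, a log2 fold change of -2.19 ± 0.52 (adjusted p = 0.0208). Kcna3, known from T cells and microglia as well as neurons, had 0.735, 1.09, 0.464 and 0.654 CPM at day 3, against 4.27, 3.15, 4.77 and 3.19 CPM in control, a log2 fold change of -2.37 ± 0.61 (adjusted p = 0.0274). Kcna3 was low at day 3 in the same libraries in which microglia and macrophage markers were high, and whether they bear on it was not tested. The other 6 genes had log2 fold changes of -0.36 to -0.76 and did not pass, among them the beta subunit Kcnab2 at -0.76 (adjusted p = 0.071) and Kcna5 at -0.54 (adjusted p = 0.0756).

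Kcnv2 and Kcnj14 lay below control at day 3 without passing the test. The silent subunit Kcnv2 had 301, 269.7, 201 and 295 CPM at day 3, against 477, 479, 557 and 437 CPM in control; the groups did not overlap, but the log2 fold change of -0.87 did not pass (adjusted p = 0.0584). Kcnj14, the most abundant channel gene per length, also did not pass, with 401, 435, 265 and 403 CPM at day 3, against 618, 613, 672 and 692 CPM in control and a log2 fold change of -0.79 (adjusted p = 0.0773). The rod marker sums were lower in the same libraries, and 16 of 16 rod markers had every day 3 library below every control. Of the 16, 2 were called lower. Whether the rod content bears on these channel genes was not tested.

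The Kcnc class holds the fast delayed rectifiers that let neurons fire at high rates. Kcnc1 and Kcnc4 were lower at day 3. Kcnc1 had 82.3, 72.9, 46.95 and 57.5 CPM at day 3, against 145, 155, 149 and 155 CPM in control, a log2 fold change of -1.22 ± 0.33 (adjusted p = 0.0309). Kcnc4 had a log2 fold change of -0.96 ± 0.27 (adjusted p = 0.0341). Kcnc2, known from amacrine interneurons, had 28.0, 26.3, 18.3 and 23.1 CPM at day 3, against 45.3, 49.0, 48.1 and 50.4 CPM in control, and its log2 fold change of -1.01 did not pass (adjusted p = 0.0863). Each of these 3 genes had all day 3 libraries below all controls.

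The Kcnd class carries the fast transient current that delays firing. Kcnd2, its member of dendrites, had 4.71, 1.81, 3.11 and 2.56 CPM at day 3, against 9.16, 9.77, 9.02 and 11.4 CPM in control, a log2 fold change of -1.69 ± 0.50 (adjusted p = 0.0401). Its auxiliary subunits, the 4 calcium-binding Kcnip genes, gave log2 fold changes of -0.95 to -0.35 with none called. Kcnd3 had -0.84 (adjusted p = 0.109), without overlap of the groups, and Kcnd1 had -0.11 (adjusted p = 0.702). The silent subunits of the Kcnf, Kcng and Kcns classes, which work only by joining Kcnb channels, gave no call. The nearest were Kcng1 at -1.67 (adjusted p = 0.0505) and Kcnf1 at -1.001 (adjusted p = 0.0558).

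The Kcnh class holds the ether-a-go-go channels, of which the erg members help to end a burst of firing. Of 7 tested genes 4 were lower at day 3. Kcnh5 (ENSMUSG00000034402, chromosome 12, 74897220 to 75177332 on mm10) had 2.14, 3.86, 1.52 and 3.09 CPM at day 3, against 10.5, 11.8, 12.3 and 10.9 CPM in control. The groups did not overlap, and the log2 fold change was -2.09 ± 0.42 (adjusted p = 0.0126). Kcnh5 had the smallest p of all channel genes at day 3, and it was the only one of the 21 called that stayed called with each of the 8 libraries left out in turn. After adding the lens and cornea covariates its log2 fold change was -1.06 (adjusted p = 0.182). Kcnh8 had 0.367, 0.241, 0.132 and 0.535 CPM at day 3, against 1.36, 0.918, 1.97 and 1.495 CPM in control, and passed at a low level with -2.13 ± 0.57 (adjusted p = 0.0306). Kcnh7, an erg channel, had -1.28 ± 0.33 (adjusted p = 0.0261), and the erg channel Kcnh2 fell least of the 20, with 76.9, 87.2, 61.0 and 71.2 CPM at day 3, against 96.6, 108, 99.1 and 124 CPM in control and -0.53 ± 0.12 (adjusted p = 0.0172). Kcnh1 and Kcnh3 had positive signs, 0.81 and 0.91, and did not pass. Kcnh3 overlaps Mcrs1 on the opposite strand, which had a mean of 1434 counts in control beside 8.75 for Kcnh3, so its reads are uncertain.

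The Kcnq class gives the slow M-current that damps repeated firing. Kcnq3, a subunit of neurons, was lower at day 3. It had 6.80, 5.86, 4.37 and 5.23 CPM at day 3, against 13.4, 13.6, 14.5 and 11.9 CPM in control, a log2 fold change of -1.26 ± 0.33 (adjusted p = 0.0294). Kcnq1 and Kcnq5 were at 0.92 and -0.04 and did not pass. The antisense gene Kcnq1ot1 overlaps Kcnq1, with a mean of 502.75 counts in control beside 6.25 for Kcnq1, so the Kcnq1 reads are uncertain.

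The Kcnj class holds the inward rectifiers. Of its 12 tested genes 2 were lower at day 3, both gated by G proteins. Kcnj6 (chromosome 16, 94748636 to 94997701 on mm10), which opens when G-protein-coupled receptors are active, had 0.858, 1.39, 0.265 and 0.832 CPM at day 3, against 4.58, 4.39, 5.21 and 3.58 CPM in control. It showed the steepest fall of the class, a log2 fold change of -2.39 ± 0.50 (adjusted p = 0.0143). Kcnj5 had 6.00, 4.35, 3.78 and 4.64 CPM at day 3, against 13.4, 12.7, 11.1 and 11.2 CPM in control, or -1.37 ± 0.36 (adjusted p = 0.0294). Their relatives Kcnj3 and Kcnj9 gave -0.63 (adjusted p = 0.063) and -0.74 (adjusted p = 0.131), also without overlap of the groups. An antisense gene, AC165271.1, overlaps Kcnj6 on the other strand with a mean of 25.3 counts in control beside 69.5 for Kcnj6, and with the strand setting not given in the sources used here their reads cannot be told apart.

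Kcnj10 (ENSMUSG00000044708, chromosome 1, 172341210 to 172374085 on mm10) carries the potassium siphoning current of Müller glia, and its protein sits at the end-feet on blood vessels. It had 42.3, 38.4, 21.7 and 56.9 CPM at day 3, against 41.1, 50.7, 54.5 and 55.8 CPM in control. The groups overlapped, with day 3 replicate 4 above every control and replicate 3 far below, and the log2 fold change of -0.34 ± 0.21 did not pass (adjusted p = 0.23). Müller glia marker sums were higher in every day 3 library than in every control, but the 12 markers were mixed. Every day 3 library lay above every control for 4 of them and below for 4, beside 17.4% and 22.8% of all genes. Of the 12, 2 were called higher and 2 lower. The part of these markers in the Kcnj10 values was not tested. Kcnj16, the partner of Kcnj10 in glia, did not reach the filter in either table, with at most 1.26 CPM in any library. Kcnj13, the channel of the apical membrane of the pigment epithelium, had 6.31, 7.30, 8.21 and 11.8 CPM at day 3, against 10.6, 9.84, 13.2 and 8.58 CPM in control, with -0.33 (adjusted p = 0.321). Kcnj13 overlaps Gigyf2 on the opposite strand, which had a mean of 2127 counts in control beside 165.5 for Kcnj13, so its reads are uncertain. Kcnj8, the pore of the ATP-sensitive channel of pericytes, had 0.43 (adjusted p = 0.365). Without control replicate 4, at 4.68 CPM of Kcnj8 where the other controls had 2.23 to 2.47 CPM, it was 0.75 (adjusted p = 0.164). Its regulatory subunit Abcc9 was higher at day 3, at 8.49 ± 1.36 CPM against 4.499 ± 0.659 CPM in control (SD, n = 4), a log2 fold change of 0.92 ± 0.28 (adjusted p = 0.0424). The 11 markers of pericytes and smooth muscle summed to 299 to 352 CPM at day 3 and 151 to 213 CPM in control, with 4 of 11 called higher, and their part in the Abcc9 result was not tested.

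The Kcnk class holds the two-pore leak channels, which set the resting voltage without gating by it. It had calls in both directions at day 3. Kcnk9, an acid-sensitive leak channel of neurons, had 11.7, 10.1, 7.15 and 7.14 CPM at day 3, against 27.5, 26.8, 24.0 and 22.1 CPM in control, with -1.48 ± 0.40 (adjusted p = 0.0302). Kcnk10, a stretch-sensitive one, passed at a low level, with 0.306, 0.241, 0.464 and 0.119 CPM at day 3, against 1.49, 0.984, 0.635 and 1.43 CPM in control, and -1.99 ± 0.50 (adjusted p = 0.0252). Kcnk6, known in mouse macrophages as a path for potassium efflux, had 7.84, 6.58, 20.4 and 3.87 CPM at day 3, against 5.69, 3.54, 2.80 and 2.86 CPM in control. It was the only channel gene called higher, with 1.37 ± 0.44 (adjusted p = 0.0496), although the groups overlapped and replicate 3 was far above the others. That replicate also had the most cornea and conjunctiva markers, 34352 CPM. Without that replicate the Kcnk6 log2 fold change, day 3 against control, was 0.71 (adjusted p = 0.22), and after adding the lens and cornea covariates it was 0.18 (adjusted p = 0.787). Kcnk1, a leak channel also found in Müller glia, had 0.03 (adjusted p = 0.871), and Kcnk13, the leak channel of microglia, had -0.08 (adjusted p = 0.844).

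The Kcnm, Kcnn, Kcnt and Kcnu classes hold channels that respond to ions inside the cell, with the auxiliary Kcnmb subunits. Of their 10 tested genes 2 were lower at day 3. Kcnn2, a small-conductance channel behind the pause after a spike, had 7.71, 8.33, 6.29 and 6.54 CPM at day 3, against 16.3, 17.8, 15.2 and 18.3 CPM in control, with -1.23 ± 0.27 (adjusted p = 0.0173). Kcnt1, opened by sodium, had 35.8, 37.7, 35.4 and 25.1 CPM at day 3, against 54.4, 64.7, 53.4 and 56.4 CPM in control, with -0.77 ± 0.24 (adjusted p = 0.0432). Kcnma1, the large-conductance calcium-activated pore, had -0.68 (adjusted p = 0.196). Kcnn4, the calcium-activated channel of blood cells and microglia, had 1.59, 0.724, 2.38 and 0.892 CPM at day 3, against 0.557, 0.721, 0.635 and 0.390 CPM in control. Every day 3 library of Kcnn4 lay above every control, but its log2 fold change of 1.26 did not pass (adjusted p = 0.174).

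**Figure D3:**
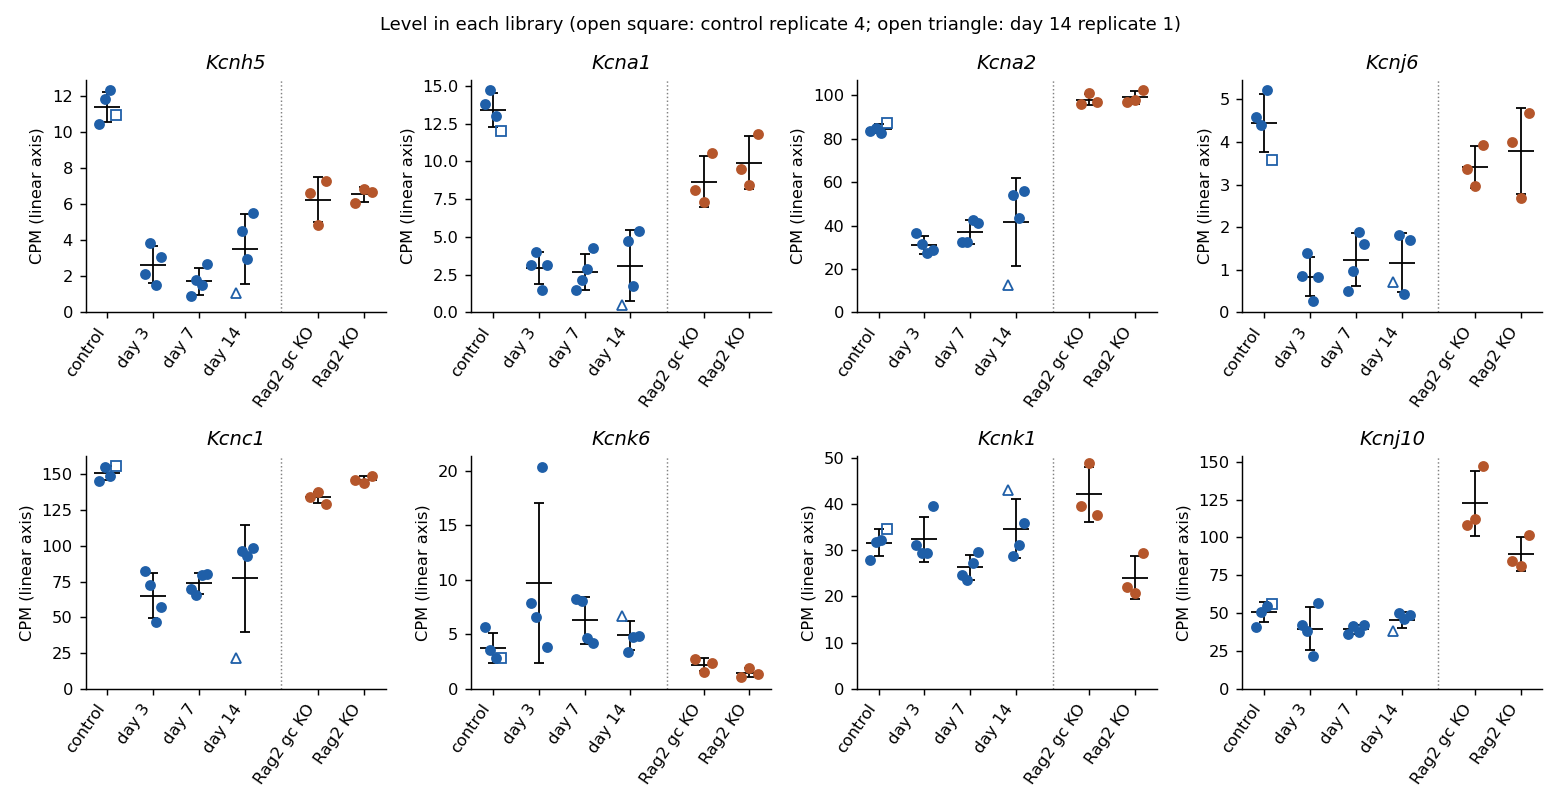
Level in every library, in CPM on linear axes, for 8 channel genes; points are libraries, bars the mean and SD (n = 4 per wild-type group, n = 3 per Rag2 group), and the dotted line parts the 2 tables, which were scaled separately. Kcnh5, Kcna1, Kcna2, Kcnj6 and Kcnc1 have every wild-type laser library below every control, and Kcnj10 does not. Day 14 replicate 1 (open triangle) is the lowest day 14 library for Kcnh5, Kcna1, Kcna2 and Kcnc1.

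At day 7 the calls were fewer, 9 in all, and every one was lower. Among them were Kcna1, Kcna2, Kcna3, Kcnc4, Kcnh2, Kcnh5, Kcnj6 and Kcnn2. All 9 were also called at day 3, from the same 4 controls, so the lists are not independent. They make 11.25% of the 80 genes, where 10.5% of all genes were called in either direction, a share near the background, and 6.9% in the lower direction. Kcnh5 had the lowest levels of the time course at day 7. It had 10.5, 11.8, 12.3 and 10.9 CPM in control, 2.14, 3.86, 1.52 and 3.09 CPM at day 3, 0.886, 1.80, 1.54 and 2.70 CPM at day 7, and 1.08, 4.51, 2.96 and 5.52 CPM at day 14. Every wild-type laser library at every time was below every control, and the day 7 log2 fold change was -2.71 ± 0.43 (adjusted p = 0.00661). This was the smallest p of the channel genes at day 7, and it stayed called under all 16 alternatives, with log2 fold changes from -3.01 to -1.83 and adjusted p up to 0.0364. The difference between day 7 and day 3 was called for none of the 80 genes, with 4 at an unadjusted p under 0.05 (1144 of all genes), and for none of the 18657 genes tested (0%).

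Kcna1, the axonal delayed rectifier, had 1.45, 2.13, 2.90 and 4.24 CPM at day 7, against 13.8, 14.7, 13.02 and 12.02 CPM in control, with -2.32 ± 0.52 (adjusted p = 0.0202). Kcna3 had -2.50 ± 0.62 (adjusted p = 0.0268) and Kcnj6 had -1.83 ± 0.48 (adjusted p = 0.0315). The falls in Kcna2, Kcnn2, Kcnc4 and Kcnh2 were smaller, at -1.19, -1.03, -0.89 and -0.40. Kcnc1 at -1.04 (adjusted p = 0.0551) and Kcnq3 at -1.01 (adjusted p = 0.0614) no longer passed. Kcnj10 had 36.2, 41.5, 37.4 and 41.9 CPM at day 7, against 41.1, 50.7, 54.5 and 55.8 CPM in control, with -0.37 (adjusted p = 0.233). Over all 80 genes the median log2 fold change was -0.43, beside 0.03 for all genes tested, and it was -0.20 with the lens and cornea covariates. Of the 80, 41 genes (51.25%) had every day 7 library below every control, which held for 18.4% of all genes. Without control replicate 1, 2, 3 or 4 the day 7 calls numbered 2, 1, 1 and 2, beside 2.91%, 2.24%, 0.675% and 3.27% of all genes. Without day 7 replicate 1, 2, 3 or 4 they numbered 1, 1, 7 and 7, beside 1.51%, 1%, 8.43% and 15.4%. With the lens and cornea covariates they numbered 4, beside 6.59%.

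At day 14 no channel gene passed by edgeR, where 0.273% of all genes did; 23 of the 80 had an unadjusted p under 0.05, beside 4625 of all 18657 genes, and DESeq2 called 11, beside 9.65% of all genes. Among the smallest adjusted p values were those of Kcnh5, Kcna1, Kcnj6 and Kcna2, also called at day 3 and day 7, from the same controls. Kcnh5 was at -1.69 ± 0.41 and Kcna1 at -2.10 ± 0.51 (adjusted p = 0.0688 for both), Kcnj6 at -1.92 ± 0.48 (adjusted p = 0.0699) and Kcna2 at -1.02 ± 0.31 (adjusted p = 0.0877). In these 4 genes every day 14 library was below every control. Kcna2 shows how unequal the day 14 libraries were, with 12.6, 54.3, 43.7 and 56.0 CPM at day 14, against 83.6, 85.0, 82.7 and 87.2 CPM in control. Replicate 1 lay far below the other 3, as it also did for Kcnc1, with 21.4, 96.1, 92.9 and 98.6 CPM at day 14. The median over the 80 genes was -0.33, beside 0.04 for all genes. It was -0.19 without day 14 replicate 1 and -0.13 with the lens and cornea covariates. With every library, 24 genes (30%) had all day 14 libraries below all controls, beside 12.8% of all genes. Day 14 against day 3 gave no call among the 80 genes, with 4 at an unadjusted p under 0.05 (1263 of all genes), where 0.00536% of all genes passed. Without day 14 replicate 1 it gave 23, of which 22 were higher at day 14, where 6.82% of all genes passed, and DESeq2 with every library gave 1, beside 0.616% of all genes.

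**Figure D4:**
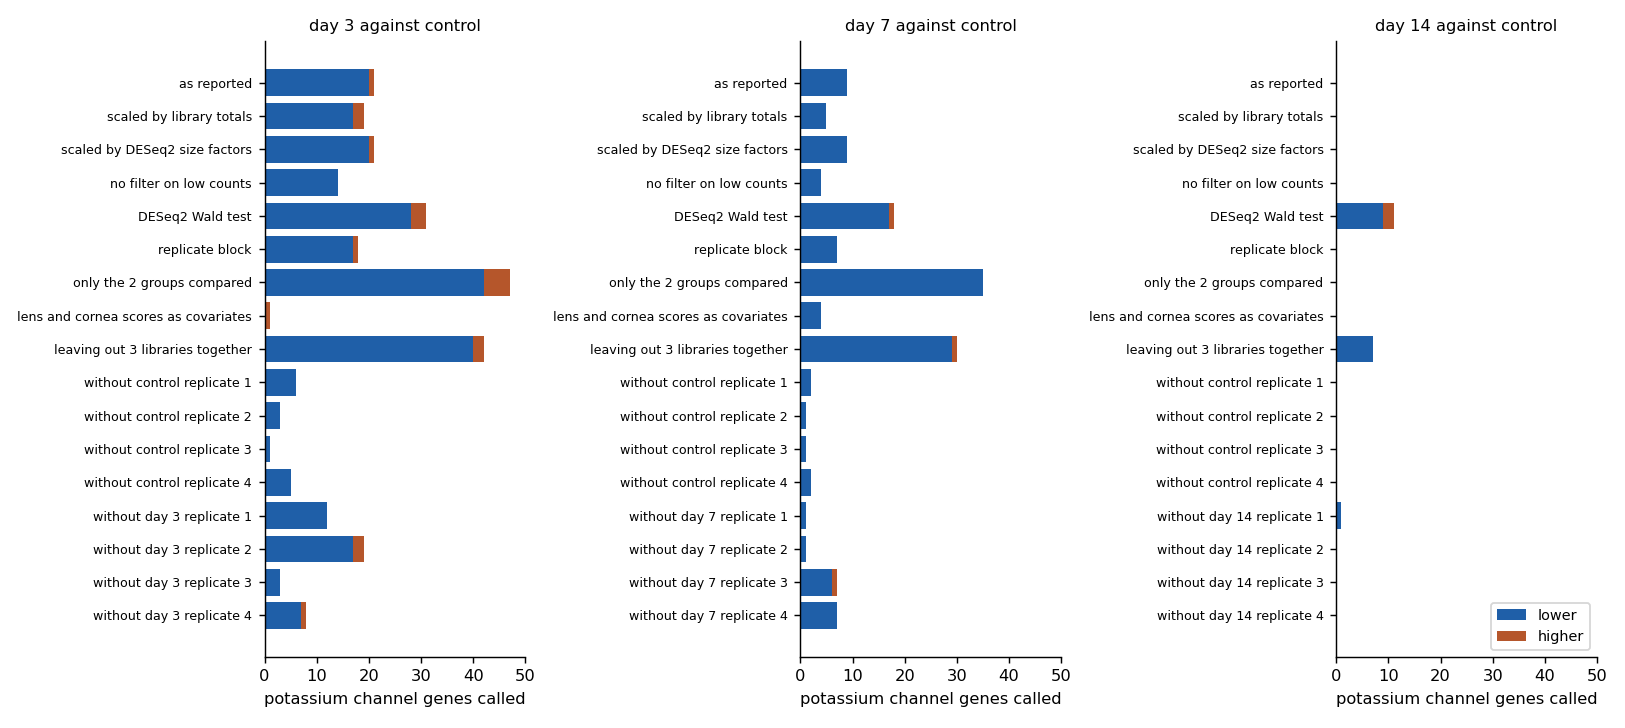
Number of channel genes called lower (blue) and higher (orange) under each setting, for day 3, day 7 and day 14 against control from left to right. The top bar of each panel is the count as reported (21, 9 and 0); the count at day 3 ranges from 1 to 47 and that at day 7 from 1 to 35.

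Genes that work beside the channels were read from 6 further lists. Their calls come from the main fit only and were not checked with the lens and cornea covariates or with libraries left out. At day 3, 14.7% of all genes were called, 7.77% as lower and 6.97% as higher, and the counts below stand beside those shares. Among 16 tested accessory partners, 3 were lower and 1 higher at day 3 (25%). Dpp10, a subunit that speeds Kcnd channels, had 4.96 ± 1.499 CPM at day 3 and 13.3 ± 2.64 CPM in control (SD, n = 4), a log2 fold change of -1.42 (adjusted p = 0.0361). Lgi1, a secreted protein that binds the Kcna complex, had -1.02 (adjusted p = 0.0254), and Nedd4l, a ubiquitin ligase of Kcnq and sodium channels, had -0.36 (adjusted p = 0.0142); the higher one was Abcc9, given above. Among 10 subunits of the sodium-potassium pump, which restores the gradient that the channels run down, 2 were higher and 1 lower. The beta subunit Atp1b1 had 184 ± 21.8 CPM at day 3 and 312 ± 32.7 CPM in control (-0.76, adjusted p = 0.0155). The other beta subunit Atp1b3 had 403 ± 103 CPM at day 3 and 149.5 ± 18.4 CPM in control (1.43, adjusted p = 0.0459), and the regulator Fxyd1 had 61.8 ± 10.01 CPM at day 3 and 28.9 ± 1.17 CPM in control (1.10, adjusted p = 0.0219).

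Of 11 genes of the end-foot complex that anchors Kcnj10 in Müller glia, 1 was lower at day 3, Dmd, at 75.0 ± 15.4 CPM against 139.7 ± 18.5 CPM in control (-0.90, adjusted p = 0.0343). Among 11 voltage-gated sodium channel genes, Scn2a, Scn4a and Scn4b were lower, at -1.16, -0.45 and -1.52, and all 11 had a negative sign with a median of -0.90. The 8 hyperpolarisation-activated and cyclic nucleotide gated channels and the 8 potassium-chloride cotransporters gave no call at day 3, with medians of -0.69 and 0.04. At unadjusted p under 0.05 they had 4 and 1 genes. Every day 3 library lay below every control for 7 and 2 genes, beside 22.8% of all genes, and above for 0 and 1, beside 17.4%. The sum of the first list was 979 to 1529 CPM at day 3 and 2111 to 2392 CPM in control. That of the cotransporters was 812 to 1029 CPM at day 3 and 1271 to 1432 CPM in control. At day 7 Dpp10 (-1.40), Nedd4l (-0.41) and Atp1b1 (-0.77) were lower again and Fxyd1 (0.86) higher. None of the 6 lists had a call at day 14 or between the Rag2 genotypes by edgeR.

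In the Rag2 pair, all at day 3 after the laser, 78 channel genes passed the filter and none was called by edgeR, where 0.465% of all 18923 genes tested were. An unadjusted p under 0.05 was reached by 16, beside 2778 of all genes, and DESeq2 called 5, beside 3.66% of all genes. The median log2 fold change was -0.11, beside 0.00 for all genes, and it was -0.066 without Rag2 gc KO replicate 3. All Rag2 gc KO libraries lay below all Rag2 KO libraries for 14 genes (17.9%), which held for 10.6% of all genes, and above them for 4 (5.13%), which held for 11.5%. The 4 higher ones were Kcnab2, Kcnj10, Kcnj13 and Kcnk1. These 4 were singled out after their values were seen.

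Kcnk1, the leak channel, had 39.6, 48.9 and 37.7 CPM in Rag2 gc KO, against 22.0, 20.8 and 29.4 CPM in Rag2 KO. Its log2 fold change of 0.81 ± 0.15 had the smallest adjusted p of the channel genes (0.0845 by edgeR, 0.000107 by DESeq2). Kcnab2 had 394, 393 and 337 CPM in Rag2 gc KO, against 295, 289.7 and 298 CPM in Rag2 KO, or 0.35 ± 0.08 (adjusted p = 0.109 by edgeR, 0.00361 by DESeq2). Kcnj10 had 109, 112 and 147 CPM in Rag2 gc KO, against 84.6, 81.0 and 101.9 CPM in Rag2 KO, or 0.46 ± 0.14 (adjusted p = 0.217 by edgeR, 0.0297 by DESeq2). For these 3 genes every Rag2 gc KO library was above every Rag2 KO library, without passing edgeR. Kcnj13 had 8.09, 8.18 and 8.25 CPM in Rag2 gc KO, against 6.24, 5.36 and 4.10 CPM in Rag2 KO, or 0.64 ± 0.19 (adjusted p = 0.181). Müller glia markers, 12 in all, summed to 7025 to 7765 CPM in Rag2 gc KO and 6337 to 6750 CPM in Rag2 KO, with none called, and microglia and macrophage markers to 238 to 381 CPM in Rag2 gc KO and 141 to 192 CPM in Rag2 KO. Their part in these values was not tested.

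On the lower side, Kcnh6, an erg channel, had 40.5, 41.5 and 42.4 CPM in Rag2 gc KO, against 50.5, 57.3 and 51.9 CPM in Rag2 KO, or -0.36 ± 0.07 (adjusted p = 0.0886). Kcnk9 had 20.1, 19.96 and 18.7 CPM in Rag2 gc KO, against 24.9, 25.3 and 26.2 CPM in Rag2 KO, or -0.38 ± 0.09 (adjusted p = 0.113 by edgeR, 0.0205 by DESeq2). The photoreceptor genes Kcnv2 and Kcnj14 had -0.30 and -0.41, neither passing, each with all Rag2 gc KO libraries below all Rag2 KO libraries. Kcnh5 did not differ beyond its spread, with 6.60, 4.86 and 7.29 CPM in Rag2 gc KO, against 6.07, 6.86 and 6.69 CPM in Rag2 KO, or -0.06 ± 0.19 (adjusted p = 0.904). Cornea and conjunctiva markers were near 0 in both genotypes, at 11.4 to 20.8 CPM.

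The genes left untested were few and low. Of the 93, 13 did not reach the filter in the wild type: Kcna7, Kcna10, Kcne3, Kcng3, Kcnh4, Kcnj1, Kcnj4, Kcnj16, Kcnk15, Kcnk16, Kcnk18, Kcnmb1 and Kcnmb3. None exceeded 1.26 CPM in any wild-type library. Kcnk16, a leak channel of pancreatic islets, had 0 counts in every library of both tables, and Kcnk18, a leak channel of sensory neurons, had 1 count in all. Kcna7, Kcnj4 and Kcnmb1 passed in the Rag2 table, while Kcne1, Kcnh3, Kcnj15, Kcnk7 and Kcnv1 passed only in the wild-type table. In the authors' deposited table, whose test is not named in the sources used here, 42 channel genes were lower and 9 higher at day 3 at an adjusted p under 0.05, 37 and 1 at day 7, and 4 and 1 at day 14. The share of all genes that the authors' test called was not computed. Whether these counts exceed that background is therefore not known. Kcnj10 was among the genes that the authors' test called lower at day 7, with a log2 fold change of -0.35. At day 3 and day 14 that test did not call it.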

How the data were processed

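TRIzol extraction and library making by Novogene are given per the labels' protocols. For the measurements, the authors deposited 1 table for the wild type and 1 for the Rag2 genotypes, each with a raw count per gene and library, made with featureCounts 1.5.0-p3 on mm10 per the submitters' processing notes. Strand setting, aligner and annotation release: not given in the sources used here. The deposited FPKM values served to compare levels between genes only. Per the file headers, the wild-type table also holds a mean signal per group, a log2 fold change, a p-value and an adjusted p-value of the authors' own comparisons. Of these, only the numbers called and the Kcnj10 result were used.

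Counts were tested in R 4.3.3 with edgeR 4.0.16 (limma 3.58.1), after filterByExpr (minimum count 10, minimum total 15) and TMM scaling. A robust quasi-likelihood fit took all 16 wild-type libraries together, and another the 6 Rag2 libraries. P-values were adjusted by Benjamini-Hochberg over all genes tested, 18657 and 18923. CPM values use TMM-scaled library sizes, and the 2 tables were never tested against each other. The script was tested on simulated data. The precision of low levels is limited by counting error at these depths. Alternatives were library totals, DESeq2 size factors, DESeq2 1.42.0, no filter, the replicate number as a block, only the 2 groups compared, scores of the lens and cornea lists as covariates, 3 libraries left out together, and each library left out in turn.

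The channel genes and the 13 marker and 6 partner lists (236 symbols, all matched) were chosen with earlier results of these data known. Genes named are Kcnh5 and Kcnj10, every channel gene called in a comparison, the highest gene of each class per length, and 14 tied to a cell type of this tissue; others named in the text were chosen after their values were seen. Counts over all channel genes include a few genes that are not reported here. The marker lists were Müller glia, rods, cones, bipolar cells, ganglion cells, amacrine with horizontal cells, pigment epithelium, endothelial cells, pericytes and smooth muscle, microglia and macrophages, lens, cornea and conjunctiva, and skeletal muscle. Lists whose called members are not counted in the report had, at day 3, 3 of 12 cone markers called (1 higher, 2 lower), 1 of 12 bipolar markers (lower), 4 of 12 Müller glia markers (2 higher, 2 lower), 5 of 12 pigment epithelium markers (lower), 1 of 12 endothelial markers (higher), 2 of 11 skeletal muscle markers (higher), 3 of 12 ganglion cell and 3 of 14 amacrine and horizontal cell markers (lower), and 5 of 15 lens, 4 of 12 cornea and conjunctiva and 10 of 13 microglia and macrophage markers (higher).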

Additional observations from a re-analysis of the deposited data

Results flagged for a closer look

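Of 164 groups of 4 libraries checked for a value far from the others, 10 were flagged; chance flags about 1 group in 20. Day 14 replicate 1, the library with the most lens markers, gave 6 of them. There Kcnc1 was at 21.4 CPM (92.9 to 98.6 in the other 3 day 14 libraries), Kcnc2 at 5.20 CPM (34.9 to 40.9), Kcnd2 at 0.505 CPM (5.69 to 6.68), Kcnj5 at 1.44 CPM (7.37 to 8.05), Kcne2 at 7.08 CPM (41.3 to 44.5) and, on the high side, Kcnn4 at 3.03 CPM (0.604 to 0.908). Day 7 replicate 1 had 2.78 CPM of Kcnn4, where the other day 7 libraries had 0.368 to 0.773 CPM. In control replicate 4, the library whose treatment label says laser, Kcns2 was at 8.51 CPM (6.25 to 6.42 in the other controls) and Kcnj8 at 4.68 CPM (2.23 to 2.47). Control replicate 1 had 3.65 CPM of Kcnf1, where the other controls had 4.53 to 4.64 CPM.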

How the results depend on the processing

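Called channel genes kept their sign under every alternative run, 21 of 21 at day 3 and 9 of 9 at day 7, while the number called varied. The share of all genes called moved too and is given as a percent beside the counts. For the runs with 1 library left out, the day 3 and day 7 shares are given with those results above. At day 3, with 21 as reported (14.7%), it was 47 (40.4%) with only the 2 groups compared, 42 (22.2%) when 3 libraries were left out at once (replicate 3 of day 3, replicate 2 of day 7, replicate 1 of day 14), and 1 (2.28%) with the lens and cornea covariates, which was Kcng4, higher at 0.93 (adjusted p = 0.0458). At day 7, with 9 as reported (10.5%), it was 35 (25.3%), 30 (19.6%) and 4 (6.59%) in the same order, 18 (20.2%) by DESeq2, 5 (7.66%) with library totals and 4 (2.14%) without the filter. At day 14, with none as reported (0.273%), DESeq2 gave 11 (9.65%) and leaving out the 3 libraries 7 (2.74%). For day 14 against day 3, DESeq2 gave 1 (0.616%), the covariates 1 (0.541%) and leaving out the 3 libraries 13 (3.64%). Between the Rag2 genotypes DESeq2 gave 5 (3.66%) and the fit without a filter 3 (1.56%). With 1 library left out the count ranged from 1 to 19 at day 3, 1 to 7 at day 7 and 0 to 1 at day 14. It ranged from 0 to 23 for day 14 against day 3, 0 to 0 for day 7 against day 3 and 0 to 1 for Rag2. The 23 (6.82%) and the 1 of day 14 (0.412%) came without day 14 replicate 1. The 1 of Rag2 (0.355%) came without Rag2 gc KO replicate 3. The cause of these shifts was not tested. Kcnh5 alone was called in all 8 such runs, at day 3 and at day 7; Kcnd2 and Kcnt1 at day 3 and Kcnc4 and Kcnh2 at day 7 were among those called in none. Of 240 results for named genes, 44 values of uncalled genes changed sign by more than their SE under an alternative, 37 of them under the covariates. Deviations of same-numbered wild-type libraries correlated at -0.506 to 0.479 (24 pairs, median 0.105). Those of different-numbered ones correlated at -0.561 to 0.596 (72 pairs, median -0.006). In the Rag2 set the values were -0.058 to 0.078 (3 pairs, median -0.046) and -0.061 to 0.115 (6 pairs, median -0.022). The ranges overlapped in both sets. The replicate block gave 18 calls at day 3 (15.5%), 7 at day 7 (9.06%) and 0 elsewhere. Genes under about 1 CPM rest on few counts.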

Other observations

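The genes below were picked out once their values had been seen: each was high in some, not all, libraries with much lens or ocular surface RNA. Kcnh1, an ether-a-go-go channel, had 136 CPM in day 14 replicate 1 and 9.41 to 43.0 CPM in the other 15 wild-type libraries. Kcnj12, an inward rectifier, had 104.5 CPM there and 5.44 to 33.8 CPM in the other 15. That library held 113718 CPM of lens markers. Kcnk5, a leak channel known from epithelia, had 24.1 CPM in day 3 replicate 3 and 18.1 CPM in day 14 replicate 1, where cornea and conjunctiva markers were at 34352 and 20294 CPM. Day 7 replicates 1 and 2 had more of these markers than day 14 replicate 1, 26890 and 23984 CPM, with Kcnk5 at 10.4 and 11.8 CPM. In the Rag2 libraries, where those markers were at 11.4 to 20.8 CPM, Kcnk5 was at 0.495 to 1.08 CPM. Kcnj15 had 11.5 CPM in day 3 replicate 3, 7.00 CPM in day 14 replicate 1 and 0.108 to 0.199 CPM in the Rag2 libraries. In day 7 replicates 1 and 2 it was only at 1.33 and 0.838 CPM, where control replicate 3 had 1.21 CPM. Kcne1 and Kcnk7 did not exceed 0.108 and 0.0669 CPM in the Rag2 libraries, and reached 3.83 and 2.47 CPM in the wild type. The tables were scaled separately, so these levels are set side by side without a test.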
